A study of Mus musculus with 7 samples.

Results

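The respiratory chain was read in RNA sequencing data from EMT6 mouse breast tumors that were sensitive or resistant to a blocking antibody against the checkpoint ligand PD-L1. The genes were chosen by name: protein-coding genes whose symbols start with Ndufa, Ndufb, Ndufc, Ndufs, Ndufv, Uqcr, Cox4, Cox5, Cox6, Cox7, Cox8, Atp5, mt-Nd, mt-Co, mt-Atp or mt-Cytb, together with Sdha, Sdhb, Sdhc, Sdhd and Cyc1. This gave 107 of the 53465 genes in the table, of which 94 are encoded in the nucleus and 13 in the mitochondrial genome. The nuclear genes are 36 subunits of complex I, 4 of complex II, 9 of complex III, 18 of complex IV (with Ndufa4, which is now placed there) and 16 of complex V, plus 8 Ndufaf assembly factors and 3 relatives that are no core subunits (Ndufa4l2, Cox7a2l and Atp5s). A further 13 rows with matching names are pseudogenes or noncoding RNAs and were not counted as members.

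EMT6, a line of mouse mammary carcinoma cells, was grown as tumors: 500000 cells were placed in the mammary fat pad of female Balb/c mice aged 6 to 8 weeks. There were 3 EMT6-P (parental) tumors from mice given isotype control antibody and 3 EMT6-PTR tumors, the αPD-L1 treatment-resistant variant, from mice given αPD-L1 (clone 80). The labels give 250 μg per mouse every 3 days for both antibodies, from the day after implantation until the institutional endpoint. There was also 1 metastasis from the resistant arm, whose site the labels do not give. The labels write PDR for the group called PTR here. They do not say that the replicates came from separate mice, so the p-values measure only the spread between these samples, which may be technical. EMT6-PTR is a single variant selected from regrowing tumors.

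The respiratory chain sits in the inner mitochondrial membrane. Complexes I and II pass electrons from NADH and succinate to ubiquinone, complex III hands them to cytochrome c, complex IV (cytochrome c oxidase) gives them to oxygen, and complex V (ATP synthase) uses the resulting proton gradient to make ATP. Complex II is built only from nuclear gene products. The other complexes combine nuclear subunits, made in the cytosol and imported, with a small core made inside the mitochondrion from long precursor transcripts. Rapidly growing tumors are known for heavy glycolysis, but most keep a working chain.

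Total estimated counts per library lay between 20430110 and 25213472. Expression is given as CPM, a count scaled to the depth of its library by the upper quartile, so levels of a gene can be compared between libraries, and levels of different genes only after division by transcript length. Several libraries stood apart. EMT6-PTR replicate 1 carried skeletal muscle genes (summed 15 markers 6330 CPM, against 9.38 to 872 CPM in the other 6 libraries). In EMT6-PTR replicate 2 the gene CT010467.1 took 13.8% of all counts, against 0.433% to 1.35% elsewhere. EMT6-PTR replicate 3 had the lowest sum of 6 carcinoma markers (597 CPM, against 1709 to 2349 CPM). Most of this sum was Krt8 and Krt18 (505 and 73.8 CPM there), while Krt7, Krt19 and Epcam lay within the EMT6-P range and Cdh1 below it. Replicate 3 also had the highest sum of 5 fibroblast markers (11843 CPM, against 4917 to 7402 CPM). Dcn held 3346 CPM of it, and Col1a1 alone was not highest there (2755 CPM, against 3708 CPM in EMT6-PTR replicate 2). The metastasis held 9 lung epithelium markers at a sum of 9117 CPM, against 6.96 to 31.9 CPM in the primary tumors. Red cell genes were also high there (5 markers, 7783 CPM, against 30.9 to 378 CPM), and so was the sum of 8 leukocyte markers (1025 CPM, against 290.1 to 652 CPM). Of the 7 leukocyte markers tested, 5 lay above every EMT6-P tumor in the metastasis and 2 below. The 10 white adipocyte markers summed to 18.6 to 55.7 CPM and the 3 brown adipocyte markers to at most 2.48 CPM. All 6 carcinoma markers had counts in every library. In the metastasis Krt8 and Krt18 were at 743 and 215 CPM, below every EMT6-P tumor. Krt7, Krt19, Cdh1 and Epcam were at 389, 172, 138 and 52.2 CPM there, above every primary tumor. In such bulk tissue, fewer cells of a type and less RNA per cell cannot be told apart. The part of these differences in the results that follow was not tested, except where a value without the library is given.

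The first comparison, of resistant with parental tumors, asked how the chain's transcripts differed between them. Nuclear-encoded subunits lay mostly lower in the EMT6-PTR tumors, while the mitochondrially encoded subunits did not share this shift. After the filter on low counts 103 members were tested, 90 nuclear and all 13 mitochondrial. Of the 79 nuclear subunits tested, 73 had a log2 fold change below 0, and their median was -0.28, against 0.03 over all 15645 genes tested. The mitochondrially encoded subunits had a median of 0.17, with 9 above and 4 below 0.

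No member passed an adjusted p of 0.05 in the quasi-likelihood test of edgeR (Benjamini-Hochberg adjustment over all genes), and none of the 15645 genes did (0.0%). At an unadjusted p under 0.05, 29 of the 103 members tested were lower in EMT6-PTR, all of them nuclear, against 5.57% of all genes, and 1 was higher, against 5.84% of all genes. Among the 79 nuclear subunits alone the share that was lower was 35.4%. The 3 EMT6-PTR tumors all lay below the 3 EMT6-P tumors for 40 of these 79 subunits (50.6%), against 11.8% of all genes tested. For 1 member they all lay above, against 9.52% of all genes. None of the 13 mitochondrially encoded genes separated the groups. DESeq2 called 7 members lower, against 1.04% of genes with an adjusted p, and 1 higher, against 1.01%.

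The size of the shift differed between the resistant tumors. Relative to the EMT6-P mean, the median nuclear subunit stood at -0.25, -0.51 and -0.18 log2 units in EMT6-PTR replicates 1 to 3. The EMT6-P tumors lay within -0.05 to 0.04 of their own mean. All 3 resistant tumors were therefore below the parental ones on this measure, and replicate 2 was the lowest. Below every EMT6-P tumor lay 64 of the 79 subunits in replicate 1, 74 in replicate 2 and 48 in replicate 3. Without replicate 2 the median log2 fold change was -0.19, and the count of members lower at an unadjusted p under 0.05 went from 29 to 11. With replicate 1 or 3 left out the count was 32 or 58, and leaving out a parental tumor gave 8, 12 and 11 for EMT6-P replicates 1 to 3, each fit having 1 tumor fewer. Scaling by library totals alone also gave 11.

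**Figure D1:**
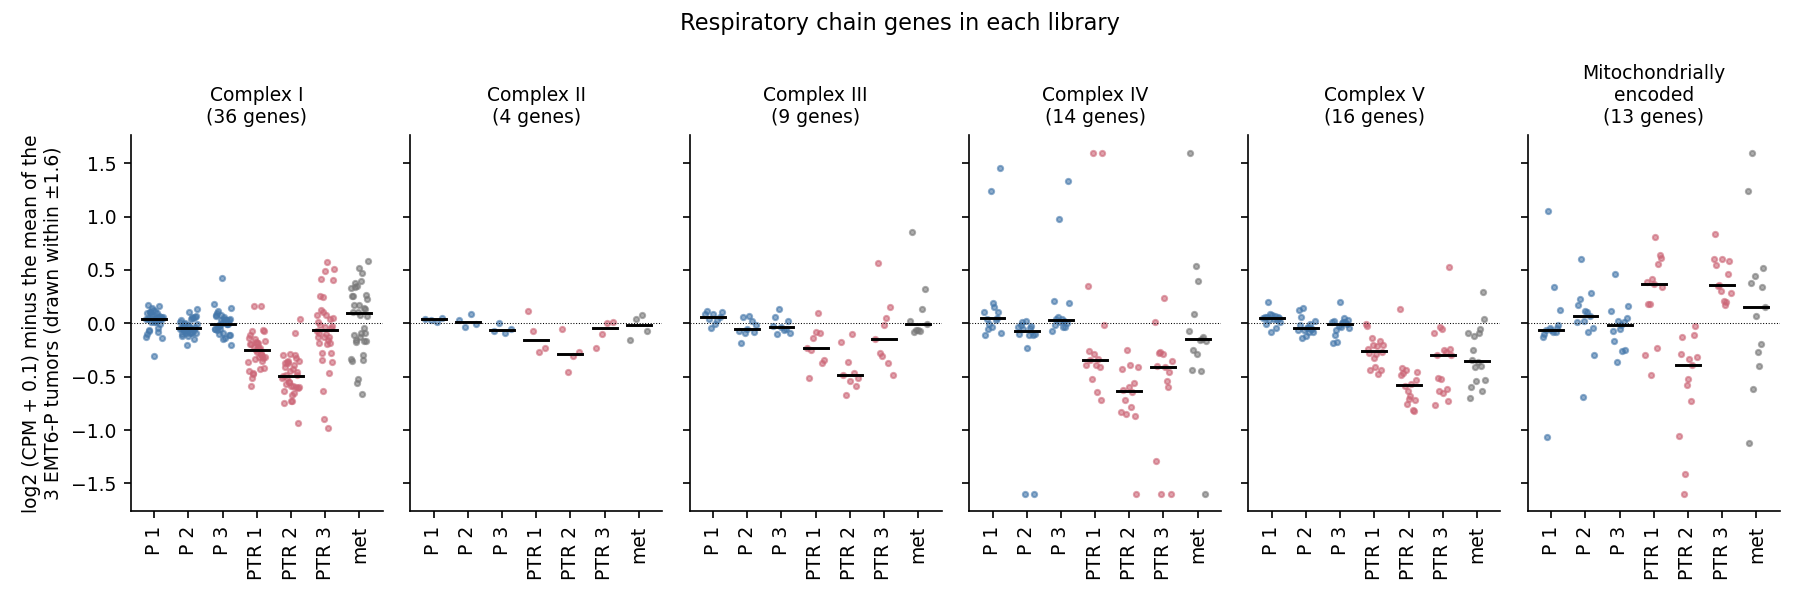
Level of each tested member in each library, as log2 (CPM + 0.1) minus the mean of the 3 EMT6-P tumors, for nuclear subunits by complex and for the 13 mitochondrially encoded genes. Points are genes, bars are medians over genes, and values beyond ±1.6 are drawn at the edge. The nuclear medians of all 3 EMT6-PTR tumors lie below those of the EMT6-P tumors in every complex except complex II. There the median of EMT6-PTR replicate 3 (-0.05) lies above that of EMT6-P replicate 3 (-0.06). The mitochondrially encoded median is at 0.37, -0.39 and 0.36 in EMT6-PTR replicates 1 to 3.

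Complex I, the NADH dehydrogenase and the largest complex of the chain, had 34 of 36 nuclear subunits with a log2 fold change below 0 and a median of -0.25. Lower at an unadjusted p under 0.05 were 7 (19.4%, against 5.57% of all genes), and 15 separated the groups (41.7%, against 11.8%). Ndufa8, an accessory subunit of the membrane arm facing the intermembrane space, measured 94.7, 85.0 and 87.3 CPM in EMT6-P replicates 1 to 3 and 64.5, 62.3 and 73.3 CPM in EMT6-PTR replicates 1 to 3. The groups did not overlap, and the log2 fold change was -0.42 ± 0.13 (SE, n = 3 per group, edgeR adjusted p = 0.421). Ndufs8, a core subunit carrying iron-sulfur clusters near the ubiquinone site, was at 55.3, 49.8 and 54.7 CPM in the parental tumors and 39.7, 27.7 and 41.3 CPM in the resistant ones. Its lowest value was that of EMT6-PTR replicate 2, and the fold change was -0.55 ± 0.18 on the log2 scale (edgeR adjusted p = 0.427). The accessory subunit Ndufs6 read 43.4, 42.5 and 44.5 CPM against 34.8, 31.7 and 35.8 CPM, also without overlap (-0.35 ± 0.12, edgeR adjusted p = 0.427).

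Other complex I subunits kept their level in one of the resistant tumors. Ndufb9 measured 116, 107 and 115 CPM in EMT6-P and 90.5, 83.5 and 168 CPM in EMT6-PTR, and Ndufa6 measured 96.3, 85.4 and 87.4 and 62.7, 60.3 and 119 CPM. Both were chosen here after their values were seen, as accessory subunits that replicate 3 held above every parental tumor while replicates 1 and 2 lay below. Of the 36 subunits 10 exceeded the highest parental value in replicate 3, 2 did so in replicate 1 and 0 in replicate 2. Per kilobase of the principal annotated transcript, Ndufb8 had the highest level of the complex in EMT6-P (199.8 CPM per kb) and Ndufb2 the lowest (6.71 CPM per kb). The transcript annotated for Ndufb2 is 4371 bases long, which lowers its value per kilobase. By CPM, Ndufb2 read 31.9, 25.4 and 30.8 in the parental and 24.5, 21.4 and 15.7 in the resistant tumors, and Ndufb8 read 137, 132 and 139 and 115, 90.3 and 119, with no overlap for either gene.

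The core subunits that carry electrons through the arm of complex I in the matrix were named outside the rule for naming genes, to set them beside the accessory ones. Ndufs1, the largest iron-sulfur subunit, was at 70.2, 77.4 and 76.0 CPM in EMT6-P and 83.6, 70.1 and 54.0 CPM in EMT6-PTR. Ndufv1, which binds NADH and flavin, was at 93.5, 95.5 and 84.6 and 86.7, 60.4 and 94.5 CPM, and its neighbor Ndufv2 was at 77.6, 84.7 and 94.0 and 76.0, 66.6 and 113 CPM. The groups overlapped for all of these, with log2 fold changes of -0.11 ± 0.18, -0.18 ± 0.19 and -0.00 ± 0.22. Ndufs3 (78.8, 72.3 and 74.6 against 61.5, 49.7 and 77.2 CPM) and Ndufs7 (45.9, 46.1 and 41.1 against 42.4, 29.1 and 43.4 CPM) overlapped as well, with replicate 2 below and replicate 3 within the parental range. Ndufs8, described above, was lower at an unadjusted p under 0.05.

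Complex II, succinate dehydrogenase, which also works in the citric acid cycle, had the smallest shift of the nuclear-encoded parts of the complexes, with a median of -0.17 over its 4 subunits and 0 of them at an unadjusted p under 0.05. Sdhb, the iron-sulfur subunit, was at 92.0, 87.6 and 89.8 CPM in EMT6-P and 85.5, 65.6 and 83.8 CPM in EMT6-PTR, so that the groups did not overlap by a narrow margin (-0.20 ± 0.14 on the log2 scale, edgeR adjusted p = 0.585). The membrane anchors Sdhc (99.1, 104 and 92.2 against 81.5, 79.6 and 98.7 CPM) and Sdhd (169, 162 and 157 against 138, 135 and 164 CPM) overlapped, with EMT6-PTR replicate 3 at the parental level in both. The flavoprotein Sdha, which oxidizes succinate, was at 119.6, 119 and 111 and 126, 112 and 99.2 CPM, with replicate 1 above and replicate 3 below the parental range (-0.05 ± 0.14). The log2 fold changes of Sdhc and Sdhd were -0.19 ± 0.14 and -0.16 ± 0.13. Per kilobase, Sdhd was the highest subunit (132 CPM per kb in EMT6-P) and Sdhc the lowest (31.1 CPM per kb).

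Complex III, which passes electrons from ubiquinol to cytochrome c, had 8 of 9 nuclear genes below 0 and a median log2 fold change of -0.24. Uqcrq, a small membrane subunit, read 93.8, 86.3 and 82.2 CPM in EMT6-P replicates 1 to 3 and 68.6, 61.0 and 62.3 CPM in EMT6-PTR replicates 1 to 3. The 3 resistant tumors lay close together and below all parental ones (-0.45 ± 0.12 on the log2 scale, edgeR adjusted p = 0.421). Uqcr11 was at 71.6, 72.4 and 65.1 CPM against 58.6, 43.7 and 57.4 CPM (-0.39 ± 0.15). The Rieske iron-sulfur protein Uqcrfs1 was at 82.9, 82.8 and 78.5 CPM against 76.2, 59.1 and 62.9 CPM (-0.30 ± 0.14, edgeR adjusted p = 0.457). Neither gene overlapped between the groups, and replicate 2 was the lowest tumor for both. Uqcrh, the hinge subunit and the gene with the highest level per kilobase (241 CPM per kb in EMT6-P, against 57.5 CPM per kb for Uqcrq, the lowest), overlapped, at 138, 125 and 134 and 102, 87.7 and 146 CPM. Cytochrome c1, encoded by Cyc1, was at 115, 103 and 106 and 91.9, 95.7 and 97.7 CPM, a narrow gap without overlap (-0.19 ± 0.12, edgeR adjusted p = 0.543). The large core proteins overlapped, Uqcrc1 at 209.7, 191 and 193 and 187, 136 and 195 CPM and Uqcrc2 at 109, 114 and 105 and 117, 102 and 113 CPM. Uqcrc2 was the 1 nuclear gene of the complex with a fold change above 0 (0.02 ± 0.12).

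Complex IV showed a larger shift. It had 14 tested nuclear genes and a median of -0.40. Of these genes, 8 were lower at an unadjusted p under 0.05 (57.1%, against 5.57% of all genes). The same 8 separated the groups (57.1%, against 11.8%). These 8 are widely expressed small subunits: Cox5a, Cox5b, Cox6a1, Cox6b1, Cox7a2, Cox7b, Cox7c and Cox8a. Cox8a measured 246, 212 and 229.7 CPM in EMT6-P replicates 1 to 3 and 139, 125 and 167 CPM in EMT6-PTR replicates 1 to 3. Its highest resistant tumor, replicate 3, was still well under its lowest parental tumor, and the log2 fold change was -0.67 ± 0.16 (edgeR adjusted p = 0.421, DESeq2 adjusted p = 0.0191). Cox7a2 read 164, 137 and 144 and 94.8, 85.6 and 111 CPM (-0.61 ± 0.15, edgeR adjusted p = 0.421, DESeq2 adjusted p = 0.0424).

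Cox7c, another short membrane subunit, had a narrow spread within each group: 82.0, 77.7 and 77.3 CPM in the parental and 59.6, 53.7 and 52.2 CPM in the resistant tumors. Its log2 fold change was -0.52 ± 0.12 (edgeR adjusted p = 0.421, DESeq2 adjusted p = 0.00984). Cox7b was at 128, 121 and 127 against 99.4, 80.3 and 86.0 CPM, and DESeq2 called it lower too (adjusted p = 0.0391, against 0.421 by edgeR). Cox5a and Cox5b, which sit outside the membrane on the matrix side, were at 189, 181 and 181 against 153, 119 and 139 CPM and 126, 133 and 135 against 103, 79.6 and 108 CPM. Both had log2 fold changes close to the median of the complex, -0.42 ± 0.14 and -0.44 ± 0.15, and replicate 2 was the lowest tumor for both. The values of Cox6a1 were 160.3, 156 and 168 and 112, 89.6 and 134 CPM, and those of Cox6b1 were 126, 131 and 129.8 and 106, 85.1 and 106 CPM. Cox4i1, the regulatory subunit with the highest level per kilobase of the complex (459 CPM per kb in EMT6-P), overlapped between the groups: 377, 342 and 334 CPM in EMT6-P and 267, 197 and 354 CPM in EMT6-PTR, where replicate 3 reached the parental range. Ndufa4 overlapped as well, at 112, 111 and 136 and 118, 89.8 and 93.1 CPM.

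With all tested genes counted, complex V had the highest share lower at an unadjusted p under 0.05, 11 of 16 (68.8%, against 5.57% of all genes). In complex IV the share was 57.1%, but its 14 tested genes include the tissue-restricted isoforms Cox4i2, Cox6a2 and Cox8b, none of them lower at this threshold. The same 11 genes of complex V separated the groups (68.8%, against 11.8% of all genes), and their complex had a median log2 fold change of -0.37. Atp5j2, the f subunit of the membrane part, had the smallest p-value of any nuclear subunit. It read 115, 118 and 123 CPM in EMT6-P and 85.1, 67.5 and 77.4 CPM in EMT6-PTR, with all resistant tumors well below the parental ones (-0.63 ± 0.13, edgeR adjusted p = 0.421, DESeq2 adjusted p = 0.00767). Atp5e, the epsilon subunit of the rotor's central stalk, was at 123, 97.3 and 102 CPM against 79.1, 71.1 and 68.8 CPM (-0.56 ± 0.14, edgeR adjusted p = 0.421, DESeq2 adjusted p = 0.0478).

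The other genes of complex V that were lower at an unadjusted p under 0.05, besides the c subunit genes, were Atp5c1, Atp5d, Atp5h, Atp5j, Atp5k, Atp5mpl and Atp5o. Of the central stalk, Atp5c1 (gamma) was at 292, 290.3 and 298 CPM in EMT6-P and 248, 220.1 and 239 CPM in EMT6-PTR (-0.32 ± 0.12). Atp5d (delta) was at 158, 159 and 141 and 126, 110.3 and 107 CPM (-0.42 ± 0.13). In both the parental tumors lay close together and the resistant ones clearly below. Of the peripheral stalk, which holds the catalytic head in place, Atp5h was at 132, 125 and 128 and 105, 79.9 and 108 CPM, Atp5j at 108, 96.9 and 104 and 88.5, 69.5 and 85.3 CPM, and Atp5o at 137, 138 and 132 and 118, 99.0 and 110.3 CPM. Replicate 2 was the lowest tumor for each of these. Atp5k, the e subunit in the membrane, was at 66.5, 62.7 and 65.6 and 57.9, 36.7 and 39.2 CPM, with replicates 2 and 3 well below replicate 1 (-0.54 ± 0.20). Atp5mpl, another small membrane subunit, was at 70.7, 64.5 and 69.9 and 56.7, 47.3 and 57.7 CPM (-0.34 ± 0.13). Genes lower at this threshold thus came from the rotor, both stalks and the membrane part, but not every gene of these parts was lower. Atp5f1 of the peripheral stalk overlapped, at 415, 449 and 360 and 370, 300 and 397 CPM (-0.20 ± 0.17). So did Atp5l of the membrane part, at 93.7, 86.2 and 89.4 and 66.1, 54.5 and 130 CPM (-0.11 ± 0.32). The alpha subunit Atp5a1 was at 621, 574 and 606 and 598, 658 and 563 CPM (0.01 ± 0.14).

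Atp5g1, Atp5g2 and Atp5g3 encode the same mature c subunit, which forms the rotating membrane ring, and differ in their import sequences. Atp5g3 was at 264, 242 and 244 CPM in EMT6-P and 188, 153 and 159 CPM in EMT6-PTR (-0.59 ± 0.14, edgeR adjusted p = 0.421, DESeq2 adjusted p = 0.0113). Atp5g1 was at 80.6, 72.5 and 74.2 against 65.9, 44.8 and 52.6 CPM (-0.48 ± 0.17, edgeR adjusted p = 0.427). For both, the groups did not overlap. Atp5g2 overlapped through replicate 3, with 121, 118 and 146 CPM in the parental and 102, 82.3 and 123 CPM in the resistant tumors (-0.32 ± 0.19, edgeR adjusted p = 0.518). Per kilobase, Atp5g3 stood at 345, Atp5g2 at 175 and Atp5g1 at 16.1 CPM per kb in EMT6-P, and the last was the lowest of the complex, with an annotated transcript of 4715 bases. The highest was Atp5b, the catalytic beta subunit (658 CPM per kb), whose CPM of 1311, 1369 and 1101 and 1234, 895 and 737 overlapped because EMT6-PTR replicate 1 lay in the parental range.

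**Figure D2:**
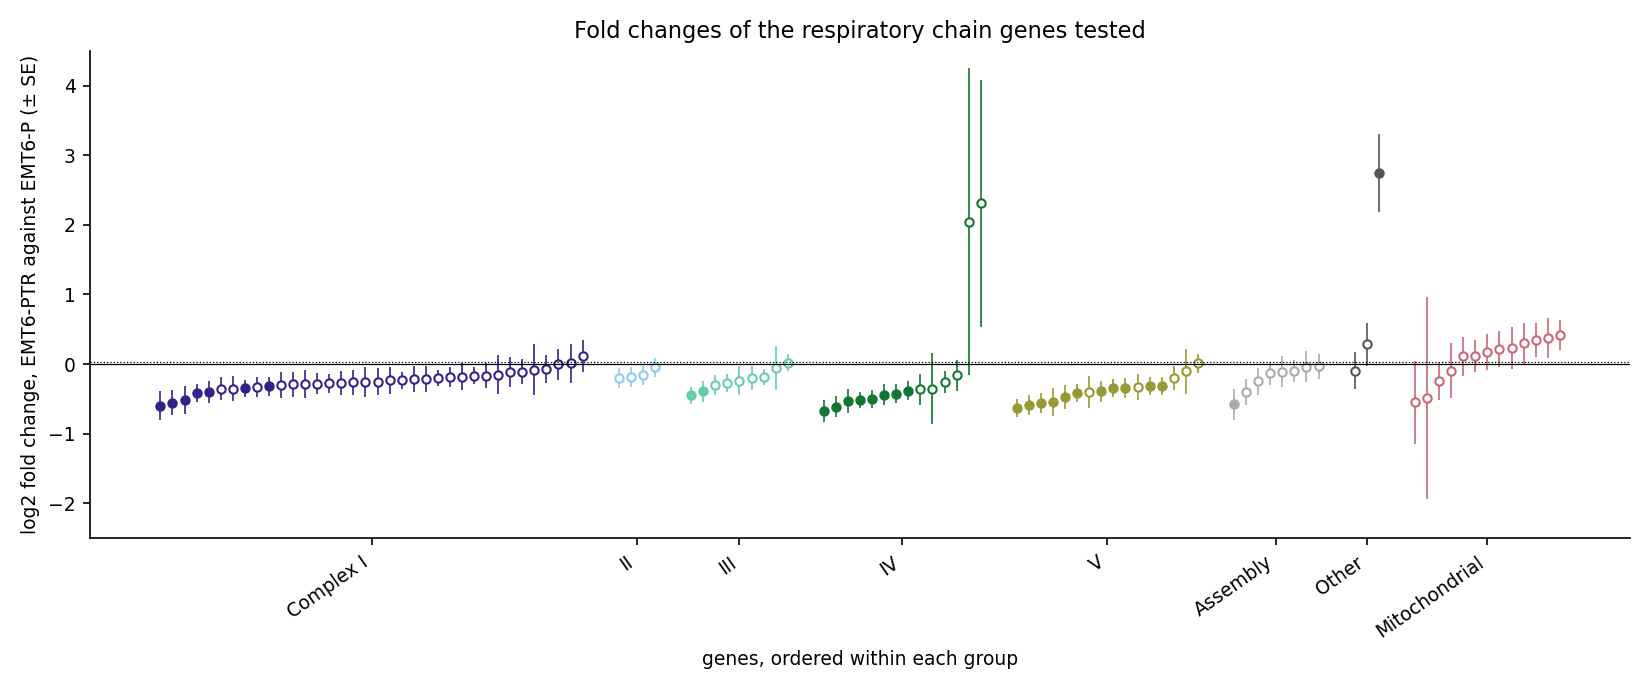
Log2 fold change of EMT6-PTR against EMT6-P for the 103 tested members, grouped by complex and ordered by value, with bars of 1 SE from edgeR. Filled points have an unadjusted p under 0.05, and the dotted line is the median of all genes tested (0.03). Most nuclear subunits lie just below 0, Ndufa4l2 lies at 2.74, and the 2 complex IV genes with long bars are Cox6a2 and Cox8b.

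The complex I assembly factors, which help to build the complex but are not part of it, had a median of -0.12. Of these, 1 of 8 was lower at an unadjusted p under 0.05 (12.5%, against 5.57% of all genes). That gene was Ndufaf2, at 11.7, 10.0 and 11.8 CPM against 9.16, 6.52 and 6.80 CPM (-0.58 ± 0.22, edgeR adjusted p = 0.431). Ndufaf8 read 11.2, 10.0 and 9.57 and 7.11, 7.69 and 8.48 CPM without overlap, and Ndufaf5 read 9.75, 9.81 and 9.06 and 7.51, 7.52 and 9.06 CPM where EMT6-P replicate 3 and EMT6-PTR replicate 3 were nearly equal. Of 37 assembly factors for the chain outside these prefixes, 5 were lower and 1 higher at an unadjusted p under 0.05, with a median of -0.08. These shares were 13.5% and 2.70%, against 5.57% and 5.84% of all genes. Of the relatives, Cox7a2l, a factor for supercomplexes of the chain, was at 275, 266 and 248 and 176, 215 and 350.4 CPM, below the parental range in replicates 1 and 2 and above it in replicate 3. Atp5s was low throughout, at 2.39, 2.80 and 2.64 and 3.05, 2.40 and 4.06 CPM.

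Ndufa4l2 was the member that differed most. It is a relative of Ndufa4 known as a target of hypoxia signaling (chromosome 10, 127514967 to 127517154 on the plus strand of GRCm38). It measured 4.19, 4.30 and 3.07 CPM in EMT6-P replicates 1 to 3 and 9.29, 24.1 and 44.0 CPM in EMT6-PTR replicates 1 to 3, with 16.3 CPM in the metastasis. Every resistant tumor was above every parental one, and the resistant tumors themselves spanned a wide range, with replicate 3 the highest. The log2 fold change was 2.74 ± 0.56 (SE), with an adjusted p of 0.421 by edgeR and 3.05e-04 by DESeq2. Leaving out single tumors, edgeR's log2 fold change stayed between 2.11 and 3.14. The widely expressed Ndufa4 had a log2 fold change of -0.26 ± 0.16. Replicate 3, the tumor with the highest Ndufa4l2, was also the one with the highest fibroblast and the lowest carcinoma marker sums, and the part of this in the result was not tested. Of 17 rows for glycolysis genes, many of which are also known to respond to hypoxia, the median log2 fold change was -0.08. At an unadjusted p under 0.05, 1 was higher (5.88%, against 5.84% of all genes) and 0 were lower (against 5.57%). The higher row was a second Aldoa identifier, under 1 CPM in every library, while the main row of Aldoa, a central enzyme of glycolysis, was at 1495, 1576 and 1136 CPM in EMT6-P and 1600, 1549 and 897 CPM in EMT6-PTR (-0.06 ± 0.27).

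Complex IV has isoforms made mainly in heart and skeletal muscle (Cox6a2, Cox7a1, Cox8b), in lung and hypoxic cells (Cox4i2) and in testis (Cox6b2, Cox7b2, Cox8c). Cox6a2 was at 4.09, 0.280 and 3.40 CPM in EMT6-P replicates 1 to 3 and 37.0, 1.39 and 0.117 CPM in EMT6-PTR replicates 1 to 3, so that replicate 1 held most of it. Cox8b followed the same tumors, at 1.80, 0 and 1.65 and 14.3, 0 and 0 CPM, and Cox7a1, which missed the filter on low counts, was at 1.02, 0.374 and 0.330 and 5.45, 0.501 and 0.234 CPM. Their edgeR adjusted p were 0.603 for Cox6a2 and 0.709 for Cox8b, and the sign of both fold changes turned below 0 when replicate 1 of EMT6-PTR was left out. Like the skeletal muscle markers, these genes were highest in EMT6-PTR replicate 1. Elsewhere the match was partial, since Cox7a1 was lower in EMT6-P replicate 3 (0.330 CPM) than in EMT6-P replicate 2 (0.374 CPM). The 15 muscle markers summed to 872, 19.9 and 513 CPM in EMT6-P and 6330, 10.2 and 9.38 CPM in EMT6-PTR. All 15 were highest in EMT6-PTR replicate 1. Ckm and Tnnc2 were at 0 in replicate 3, and Myh4 and Tnnt3 were at 0 in replicate 2. The ubiquitous partners Cox6a1, Cox7a2 and Cox8a were below the parental range in that tumor, as given above.

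Cox4i2 was at 0.926, 0.934 and 1.18 and 1.31, 0.724 and 0.352 CPM in the primary tumors. Cox6b2 stayed between 0.0781 and 0.566 CPM there. Cox7b2 and Cox8c had 0 counts in all 7 libraries, which allows up to 3 counts, or 0.117 to 0.167 CPM, in each.

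**Figure D3:**
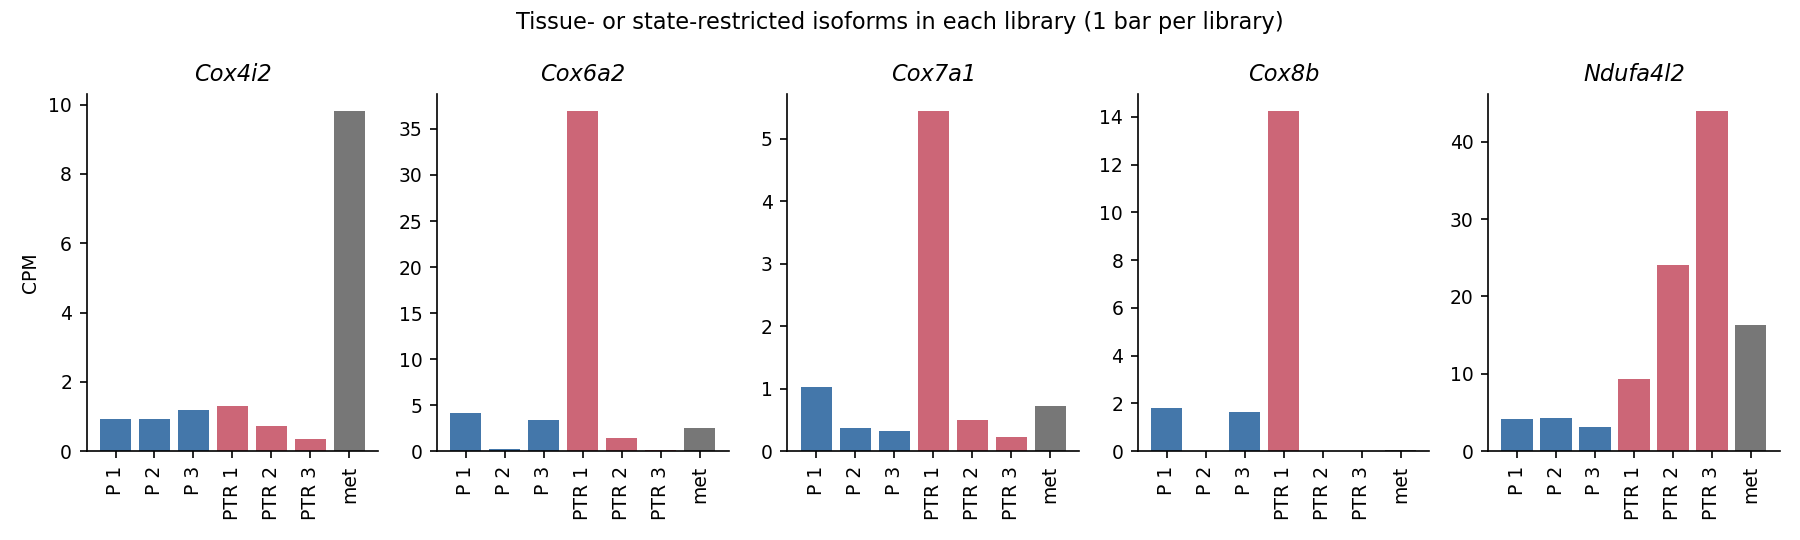
CPM of 5 isoforms restricted to certain tissues or states, with 1 bar per library and no error, since each bar is a single library. Cox6a2, Cox7a1 and Cox8b peak in EMT6-PTR replicate 1, Cox4i2 in the metastasis (9.83 CPM), and Ndufa4l2 is higher in all 3 EMT6-PTR tumors than in the EMT6-P tumors.

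The promoters of a ubiquitous isoform and of its muscle counterpart are printed because their levels followed different tumors. Each window runs from 250 bases before to 50 bases after the annotated start (RefSeq, GRCm38.p6). For Cox8a, chr19:7217567-7217866 on the minus strand, the capitals mark 2 matches to CCGGAAG on the opposite strand, a core that ETS factors such as GABPA bind. For Cox8b, chr7:140900397-140900696 on the minus strand, the capitals mark 2 matches to CAGCTG, an E box of the kind that muscle regulators bind.
Cox8a: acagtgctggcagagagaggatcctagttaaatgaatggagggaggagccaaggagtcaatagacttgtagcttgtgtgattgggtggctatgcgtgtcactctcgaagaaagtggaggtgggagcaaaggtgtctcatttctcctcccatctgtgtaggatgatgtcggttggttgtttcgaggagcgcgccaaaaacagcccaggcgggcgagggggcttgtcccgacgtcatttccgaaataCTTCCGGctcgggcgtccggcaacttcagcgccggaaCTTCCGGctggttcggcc
Cox8b: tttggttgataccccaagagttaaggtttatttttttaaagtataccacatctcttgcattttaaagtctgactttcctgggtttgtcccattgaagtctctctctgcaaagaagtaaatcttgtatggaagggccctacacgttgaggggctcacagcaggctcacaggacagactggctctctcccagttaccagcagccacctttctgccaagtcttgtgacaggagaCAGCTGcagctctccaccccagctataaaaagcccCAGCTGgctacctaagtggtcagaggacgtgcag
Of the 94 nuclear members 74 had a window in the table, 66 of them subunits. Searched on both strands, CCGGAAG was in 24.2% of the 66 subunit windows and in 12.9% of the windows of 17492 protein-coding genes. The core GCATGCGC, bound by the respiratory gene regulator NRF1, was in 15.2% against 3.9%, and AAGATGGC, bound by YY1, was in 13.6% against 3.6%. ACGTG, the core of hypoxia response elements, was in 24.2% against 23.2%, and CAGCTG in 9.1% against 17.4%. None of these motifs contains another. A match describes the letters in a window and not a binding site.

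The regulators of these genes did not show a common shift. Nrf1 was at 32.8, 34.0 and 31.1 CPM in EMT6-P and 32.7, 31.7 and 23.2 CPM in EMT6-PTR, and Gabpa, the ETS subunit of nuclear respiratory factor 2, was at 54.2, 58.9 and 49.4 and 55.6, 59.4 and 54.2 CPM. The mitochondrial transcription factor Tfam was at 38.0, 37.6 and 38.2 and 40.1, 34.7 and 37.7 CPM, and the nuclear receptor Esrra was at 29.2, 23.5 and 26.1 and 24.6, 18.9 and 15.1 CPM. The groups overlapped for each of these genes. The coactivator Ppargc1b, at 1.27, 1.07 and 0.849 and 2.27, 1.45 and 2.11 CPM, did not overlap (0.87 ± 0.34, edgeR adjusted p = 0.433). It was the 1 gene of 19 tested in the list of mitochondrial biogenesis genes that was higher at an unadjusted p under 0.05. That is 5.26%, against 5.84% of all genes, and 0 were lower, against 5.57% of all genes. Ppargc1a, its relative, read 0.0487, 0 and 0 CPM in EMT6-P and 0.698, 0 and 0 CPM in EMT6-PTR, and the tumor with muscle genes was the only primary tumor above the limit that 3 counts allow.

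Of the 13 mitochondrially encoded genes, 7 have near-identical copies among the annotated nuclear genes, which bears on how their counts can be read. A run of pseudogenes on chromosome 1 (minus strand, 24611535 to 24616197 in GRCm38) carries mt-Nd4, mt-Nd4l, mt-Nd3, mt-Co3, mt-Atp6, mt-Co2 and the end of mt-Co1 at 99.71% to 100% identity over the aligned bases. The first bases of mt-Atp6 and of its copy Gm10925 are shown because no read within them can tell the genes apart. The window of mt-Co1 is shown against its copy Gm29216 with the single difference, A1066T counted from the first base of mt-Co1, in capitals. That of mt-Nd3 is shown against Gm28438 with T3C in capitals. The sequences are from the GENCODE M21 transcripts (GRCm38), mitochondrial genes on the plus strand and copies on the minus strand.
mt-Atp6, chrM:7927-7976: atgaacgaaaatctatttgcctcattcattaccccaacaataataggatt
Gm10925, chr1:24614602-24614651: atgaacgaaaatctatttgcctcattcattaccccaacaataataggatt
mt-Co1, chrM:6390-6439: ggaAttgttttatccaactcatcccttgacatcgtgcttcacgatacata
Gm29216, chr1:24616139-24616188: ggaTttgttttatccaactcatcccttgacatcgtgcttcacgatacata
mt-Nd3, chrM:9459-9508: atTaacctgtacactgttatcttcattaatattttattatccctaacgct
Gm28438, chr1:24613070-24613119: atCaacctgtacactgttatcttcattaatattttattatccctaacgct

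RSEM shares such reads by estimation, and for some genes it placed most of them on the copies. Of the counts of mt-Co2 and its copy, between 0% and 4.19% per library stood on the mitochondrial row. For mt-Atp6 the share was 1.83% to 7.11%, for mt-Co3 2.06% to 8.35%, and for mt-Nd3 20.7% to 48.5%. Most counts of mt-Co1 (78.8% to 86.0%) and mt-Nd4l (83.2% to 100%) stood on their own rows, and the copy of mt-Nd4 had 0 counts. The row of mt-Co2 is listed at 0 in EMT6-PTR replicate 2, where its copy held 69293 counts. The deposited rows of mt-Co2, mt-Co3, mt-Atp6 and mt-Nd3 are therefore uncertain, and values with the copy added are given beside them. For mt-Atp8 no annotated copy was found, and parts of the run without an annotated gene were not searched. Its last 43 bases are also those of mt-Atp6 and of Gm10925, so its row carries uncertainty too. Adding the copies was chosen after the data were seen.

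Most mitochondrially encoded genes were higher in EMT6-PTR replicates 1 and 3 and lower in replicate 2. Among the subunits of complex I, mt-Nd5 measured 1073, 1050 and 1123 CPM in EMT6-P and 1655, 1061 and 1621 CPM in EMT6-PTR, the largest log2 fold change of the 13 genes (0.42 ± 0.21, edgeR adjusted p = 0.479). Its replicate 2 lay within the parental range and the other resistant tumors above it. mt-Nd1 was at 2470, 2802 and 2500 and 3336, 1806 and 3940 CPM (0.22 ± 0.30), and mt-Nd2 at 1058, 1206 and 1108 and 1962, 891 and 1294 CPM (0.30 ± 0.29). In both, replicate 2 lay below all parental tumors and replicates 1 and 3 above them. The same order held for mt-Nd4, at 1956, 2174 and 2098 and 3044, 1586 and 2376 CPM (0.17 ± 0.26). mt-Nd6 is the only one of the 13 on the other strand and shares 14 bases with mt-Nd5, so that reads there cannot be told apart unless strand was used in counting, which the labels do not say. It was at 519, 387 and 531 and 602, 382 and 578 CPM (0.12 ± 0.23). mt-Nd4l was at 173, 218 and 150.4 and 278, 165 and 246 CPM (0.35 ± 0.24), and mt-Nd3 at 160.3, 119 and 105 and 107, 76.2 and 142 CPM, or 331, 338 and 378 and 518, 260.1 and 389 CPM with its copy. The fold change of mt-Nd3 went from -0.24 to 0.16 with the copy, so that its sign rests on the counting.

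The cytochrome b gene of complex III, mt-Cytb, was at 2796, 2935 and 2920 and 3851, 1935 and 3568 CPM (0.11 ± 0.28), with replicate 2 again the lowest library. For the catalytic core of complex IV, mt-Co1 measured 8956, 10937 and 8293 CPM in EMT6-P and 10607, 8517 and 13656 CPM in EMT6-PTR (0.22 ± 0.26, edgeR adjusted p = 0.732). The deposited rows of mt-Co2 held 29.7, 94.9 and 86.2 and 70.9, 0 and 79.4 CPM, which became 5051, 5777 and 4938 and 5114, 3859 and 7478 CPM with the copy, where the log2 fold change was 0.06 ± 0.28. The rows of mt-Co3 held 450.1, 135 and 169.6 and 155, 81.5 and 279 CPM, which became 5388, 5610 and 4960 and 5223, 3955 and 6521 CPM (-0.02 ± 0.23). With copies added, all 3 core genes were therefore highest in EMT6-PTR replicate 3 and lowest in replicate 2 among the primary tumors.

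The complex V genes mt-Atp8 and mt-Atp6 overlap by 43 bases, in capitals in the last bases of mt-Atp8, shown because a read within them belongs to both:
mt-Atp8, chrM:7910-7969: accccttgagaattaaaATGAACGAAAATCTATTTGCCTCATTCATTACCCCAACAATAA
mt-Atp8 was at 577, 694 and 586 CPM in EMT6-P and 808, 506 and 1099 CPM in EMT6-PTR (0.38 ± 0.29). mt-Atp6 was at 128, 142 and 153 and 115, 67.6 and 213 CPM, or 5172, 5463 and 4990 and 5746, 3691 and 7970 CPM with its copy (0.16 ± 0.30, edgeR adjusted p = 0.845). For both genes replicate 3 was the highest primary tumor and replicate 2 the lowest. With the copies added, the median over the 13 genes was 0.17, the same to 2 decimals as for the deposited rows. Leaving out single tumors moved the median of the deposited rows between -0.01 and 0.37, the extremes coming from EMT6-PTR fits that lacked replicate 1 and replicate 2.

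**Figure D4:**
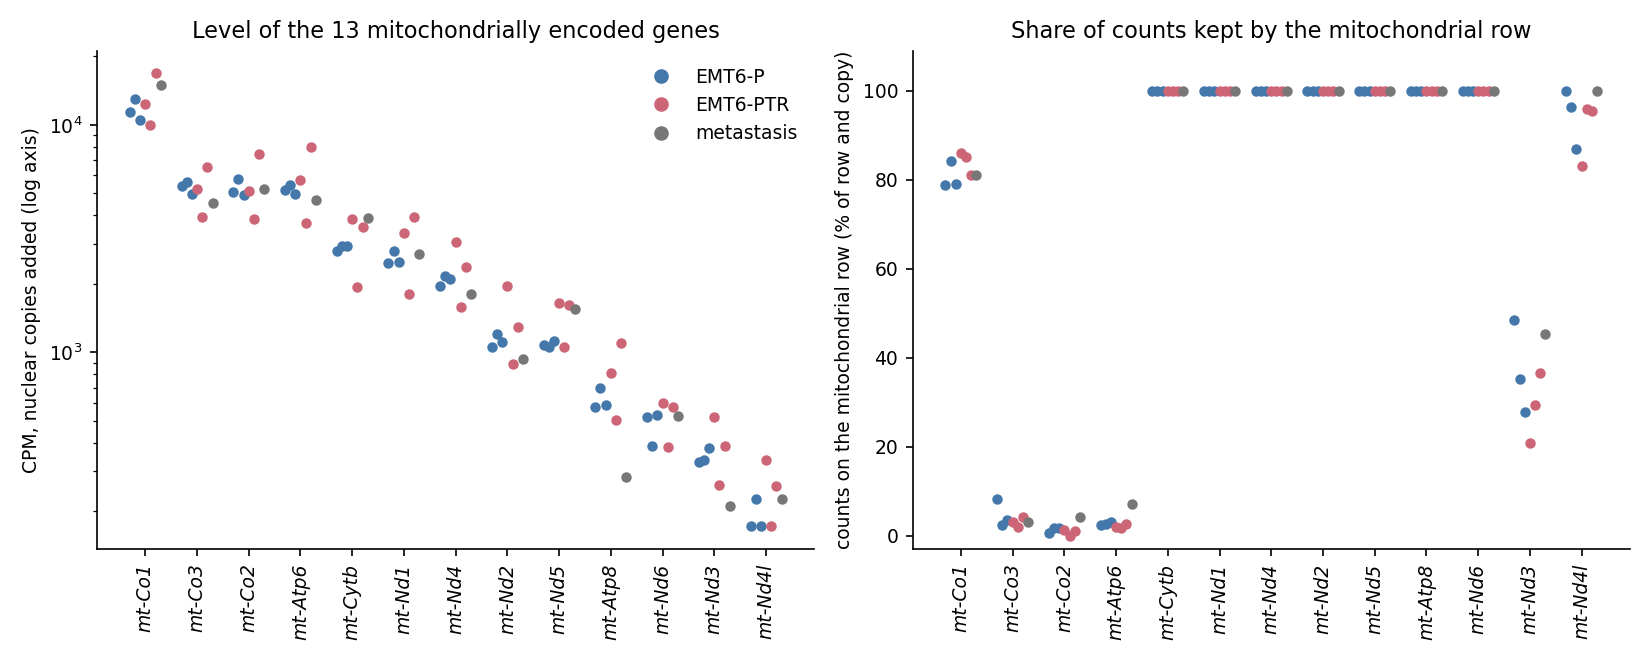
Left, CPM of the 13 mitochondrially encoded genes with their nuclear copies added, on a log axis, with 1 point per library. Right, the percentage of a gene's counts that stood on the mitochondrial row rather than on the copy. EMT6-PTR replicates 1 and 3 spread around or above the EMT6-P tumors and replicate 2 below, and the rows of mt-Co2, mt-Co3 and mt-Atp6 kept under 10% of the counts.

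The balance of both genomes was compared within each library, where the scaling between libraries plays no part. The log2 ratio of summed mitochondrially encoded counts to summed nuclear subunit counts was 1.05, 1.27 and 1.09 in EMT6-P and 1.69, 1.31 and 1.82 in EMT6-PTR. The means were 1.14 ± 0.12 and 1.61 ± 0.27 (SD, n = 3 each), a difference of 0.47, and the groups did not overlap, although EMT6-PTR replicate 2 came close to the highest parental tumor. With the copies added the values were 1.95, 2.14 and 1.98 in EMT6-P and 2.44, 2.13 and 2.71 in EMT6-PTR. The difference was then 0.40, and replicate 2 fell inside the parental range. The ratio was thus higher in replicates 1 and 3 under both counts, and the standing of replicate 2 depended on the counting. No test was made on this ratio. As the mean log2 CPM over genes, in which each gene weighs the same and the 0 of mt-Co2 enters, the difference was 0.14 and the groups overlapped.

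Put as shares of a library, the 13 mitochondrial rows held 2.04% to 2.23% of counts in EMT6-P and 2.84%, 1.50% and 2.95% in EMT6-PTR replicates 1 to 3. The nuclear subunits held 0.924% to 0.985% and 0.880%, 0.606% and 0.837%. In replicate 2 both shares were the lowest of all libraries, and this is the library in which CT010467.1 took the large share given above. The mitochondrial ribosomal RNA genes stood the other way, at 0.597% of counts in replicate 2 against 0.0522% to 0.108% in the other libraries, and the part of this in the result was not tested.

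**Figure D5:**
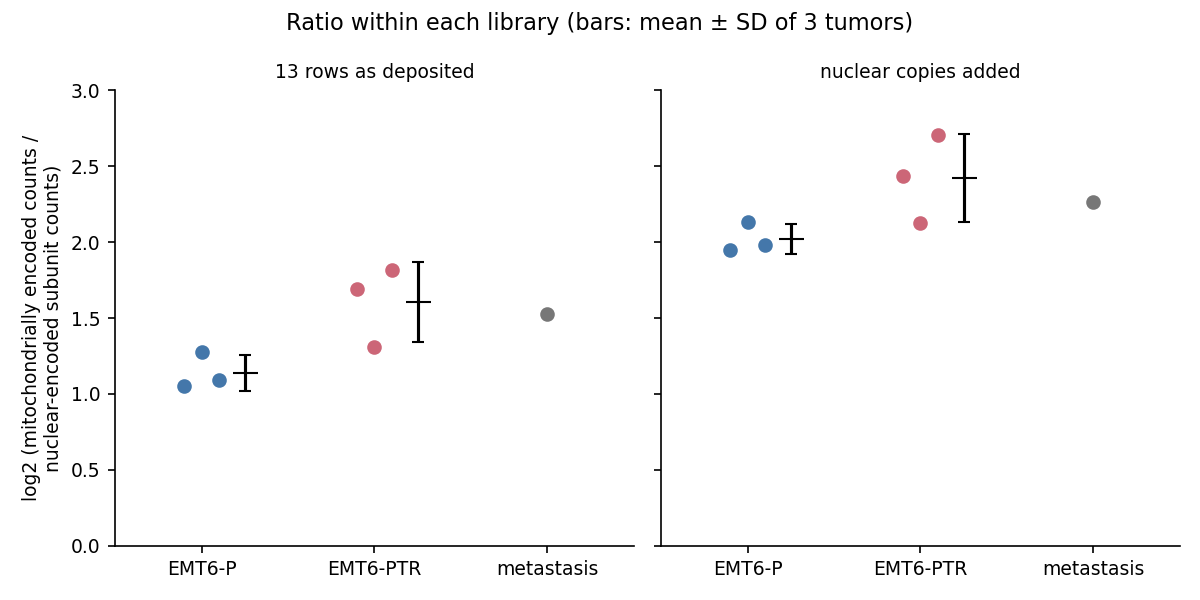
Log2 ratio of mitochondrially encoded to nuclear-encoded subunit counts in each library, from the deposited rows (left) and with nuclear copies added (right). Points are libraries, and bars give the mean ± SD of 3 tumors. EMT6-PTR replicates 1 and 3 lie above all EMT6-P tumors in both panels, and replicate 2 lies above them only on the left.

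Other gene groups show how far the lower values were shared. Of 78 mitochondrial ribosome genes, 30 were lower at an unadjusted p under 0.05 (median -0.34). Of 81 cytosolic ribosome genes 32 were (median -0.41). These shares, 38.5% and 39.5%, were close to the 35.4% of the nuclear subunits. Of 16 genes for cytochrome c, ubiquinone synthesis and the carriers of ATP and phosphate, 2 were lower (12.5%, median -0.27). Of 16 citric acid cycle and pyruvate dehydrogenase genes 1 was (6.25%, median -0.05). The share over all genes tested was 5.57%. Transcripts of the citric acid cycle list were longer (median 2590 bases, against 838 for the nuclear subunits), and differences between the lists were not tested.

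Short transcripts of other genes were also lower. Over 744 other protein-coding genes with a principal transcript under 1000 bases the median log2 fold change was -0.26, and 24.3% were lower at an unadjusted p under 0.05. Over 12365 longer ones the median was 0.04 and the share 4.13%. Among the nuclear subunits the 47 short ones had a median of -0.32 (40.4% lower) and the 32 longer ones a median of -0.25 (28.1% lower). In both length classes the median of the subunits was below that of the other genes, by more among the longer ones. The classes did not match in length, however. The longer subunits had a median transcript of 1593 bases, against 3146 for the other longer genes. For the short ones it was 659 against 788 bases. The part of transcript length in the result was not tested. By tumor, the short genes outside the chain had medians of -0.35, -0.42 and -0.16 log2 units against the EMT6-P mean in EMT6-PTR replicates 1 to 3, the same order of tumors as for the nuclear subunits.

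The metastasis was set beside the EMT6-PTR primary tumors to see whether its chain differed from theirs. It has no replicate, and no test was made. The median nuclear subunit was 0.26 log2 units above the mean of the 3 primary tumors. Relative to the EMT6-P mean it stood at -0.07, higher than in any EMT6-PTR primary tumor and just below the EMT6-P tumors. The 744 other protein-coding genes with short transcripts, under 1000 bases, gave nearly the same values, 0.26 against the EMT6-PTR primary mean and -0.07 against the EMT6-P mean. Within the chain, the median against the EMT6-PTR primary mean was 0.37 for the 47 short nuclear subunits and 0.09 for the 32 longer ones. The part of transcript length in this difference was not tested. By complex, the medians against the EMT6-P mean were 0.09 for complex I, -0.02 for II, -0.01 for III, -0.15 for IV and -0.35 for V. Complex V thus stayed as low in the metastasis as in the resistant primary tumors, while complexes I, II and III were close to the parental mean. The mitochondrially encoded median was 0.01 log2 units from the primary mean, and the log2 ratio of the genomes was 1.53, inside the range of the primary EMT6-PTR tumors.

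At least 2-fold above the EMT6-PTR mean were 3 of the 103 tested members, against 12.4% of all genes, and at least 2-fold below were 2, against 8.58%. The members above were Cox4i2, mt-Co2 and mt-Atp6. Cox4i2, at 9.83 CPM against 1.31, 0.724 and 0.352 CPM, was 3.64 log2 units higher, and the lung epithelium markers in this library are given above. Of these markers Sftpc read 2348 CPM and Scgb1a1 3007 CPM in the metastasis, and both were at 0 in the 3 EMT6-PTR primary tumors. Their part in the level of Cox4i2 was not tested. The rows of mt-Co2 (219 CPM) and mt-Atp6 (331 CPM) were higher only as deposited: with their copies they read 5230 and 4659 CPM, within the range of the primary EMT6-PTR tumors. The lower members were mt-Atp8, at 284 CPM (-1.43 log2 units), and Cox8b, at 0.0400 CPM against a primary mean set by replicate 1. Next below came mt-Nd2, at 932 CPM (-0.49 log2 units). Of these, mt-Atp8 was below all 3 EMT6-PTR primary tumors, and mt-Nd2 was within their range. The row of mt-Atp8 shares 43 bases with mt-Atp6, whose deposited row went the other way. The part that the division of reads had in the level of mt-Atp8 was not tested. With its copy, mt-Nd3 was also below all of them in the metastasis, at 211 CPM, although its deposited row was within their range.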

How the data were processed

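Bulk RNA from 7 tumor libraries was sequenced, and 1 table of the series holds their values. Per the submitters' notes, reads were checked with FastQC 0.11.5, aligned to the mouse genome (GRCm38) with STAR 2.6.0a and counted with RSEM 1.3.1. The deposited values are RSEM estimated counts per gene, made by the authors with an M16 GENCODE annotation and not normalized. They can carry fractions, since RSEM divides reads between similar genes, so they were rounded to whole numbers. All columns were mapped to a sample (0 were not).

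Symbols came from a GENCODE M21 annotation (53360 of 53465 IDs matched). The members and all gene lists were chosen with earlier results of these data known. EMT6-PTR (3) was compared with EMT6-P (3) in edgeR 4.0.16 (R 4.3.3): filterByExpr, upper-quartile factors, quasi-likelihood test, Benjamini-Hochberg over 15645 genes, threshold 0.05. SEs are the log2 fold change divided by the root of F. The metastasis had no test: log2 CPM (prior count of 2) was set against the mean of the EMT6-PTR tumors. Genes were named by rule: all mitochondrially encoded genes, up to 3 with the smallest p per nuclear group, restricted isoforms with their partners, the extremes per kilobase of each complex, the metastasis' extremes and 6 regulators. Alternatives were TMM factors, library totals, DESeq2 1.42.0 (1951 genes without an adjusted p), limma 3.58.1 voom, other filters, the metastasis in the fit, a replicate block and each tumor left out. Near-identical copies (at least 99% identity over at least 200 bases) were searched with BLAST 2.17.0 among the annotated transcripts only. The fits were tested on simulated data. Depth was 20430110 to 25213472 counts per library, and limits from a count of 0 cover counting error only.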

Additional observations from a re-analysis of the deposited data

How the results depend on the processing

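The median of the nuclear-encoded subunits stayed negative in every alternative run: -0.30 to -0.26 under other scalings, tools and filters, and -0.40 to -0.19 with single tumors left out. With 3 tumors per group, with each resistant library standing apart in a marker list or in 1 gene and with counts that RSEM divides between copies, single genes remain uncertain. The number of members at an adjusted p under 0.05 was 0 except with DESeq2 (8). The number lower at an unadjusted p under 0.05 was 29, 11 with library totals alone, 8 to 58 with single tumors left out, 17 with the replicate block, and 21 to 29 under the remaining alternatives. The cause was not tested, and fits without a tumor have fewer samples. With the replicate block, the nuclear median was -0.29 and the mitochondrial median 0.12. Deviations of same-numbered tumors correlated at 0.259, 0.253 and 0.0384, against -0.286 to 0.0979 for tumors with unlike numbers. Whether same-numbered tumors share more than a number cannot be told from these values. Not every tumor correlated best with its own number. The mitochondrially encoded median ranged from 0.12 to 0.21, and from -0.01 to 0.37 with single tumors left out. With copies added, an alternative chosen after seeing the data, it was 0.17, and 0.04 to 0.39 with single tumors left out.

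The difference in the log2 ratio was 0.47, against 0.14 as a difference of mean log2 CPM, 0.36 to 0.62 with single tumors left out, and 0.40 with copies added (0.26 without EMT6-PTR replicate 3). For the metastasis the nuclear median ranged from 0.17 to 0.33 and the mitochondrial one from -0.21 to 0.17.

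Of the named genes, Cox8b turned to -1.01 with limma-voom and -0.25 with the replicate block, Tfam to 0.00403 with TMM factors and 0.00565 with DESeq2, and with copies added mt-Atp6 to 0.16, mt-Co2 to 0.061 and mt-Nd3 to 0.16. Leaving out single tumors turned the sign of several log2 fold changes. The ranges were Cox4i2 -0.93 to 0.015, Cox6a2 -1.82 to 2.89, Cox7a2l -0.43 to 0.099, Cox8b -7.63 to 2.64, Gabpa -0.0041 to 0.12, Tfam -0.070 to 0.040, mt-Atp6 -0.63 to 0.22, mt-Co2 -0.98 to 0.10, mt-Co3 -1.09 to 0.18, mt-Cytb -0.070 to 0.37, mt-Nd1 -0.011 to 0.49, mt-Nd2 -0.044 to 0.54, mt-Nd4 -0.070 to 0.39 and mt-Nd6 -0.015 to 0.30.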
